A study of Copadichromis virginalis x Mchenga conophoros with 6 samples.

Results

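The scaffold proteins of the postsynaptic density were followed through 9 genes, taken by name from the allele count tables: dlg1, dlg3, dlgap1, dlgap2, dlgap3, dlgap4, shank1, homer1 and homer2. All 9 were listed in each of the 6 libraries, among 6848 genes listed in all of them and 13212 listed in any. The postsynaptic density is the protein meshwork beneath the membrane of excitatory synapses, and most of what is known of it comes from mammals. There, the membrane-associated guanylate kinases encoded by the dlg genes hold glutamate receptors through PDZ domains, and the dlgap proteins link them to the shank proteins. Shank proteins form a deeper layer of the lattice, and homer proteins tie it to metabotropic glutamate receptors and to calcium release channels of the endoplasmic reticulum.

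The samples were whole brains of male F1 hybrids of 2 Lake Malawi cichlids, Copadichromis virginalis, whose males dig pits, and Mchenga conophoros, whose males build castles of sand. Both parental genomes are read in the same cells of such a hybrid, so the share of reads on either allele compares the parental copies within an animal. There were 2 libraries from males in the pit digging paradigm, 2 from the castle building paradigm and 2 from males kept in isolation. Age, brood and direction of the cross were not given in the sources used here. Nor was it stated whether the replicates were separate animals, and the spread that the p-values rest on may be technical.

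Each library held 2155680 to 3294397 allele-assigned counts, of which the 9 scaffold genes made up 0.115 to 0.193%. Both castle building libraries gave nearly the same counts, with differences below sampling noise (chi-square per degree of freedom 0.514 over summed counts; 32.0 between the pit digging libraries, 22.8 between the isolated ones), and were counted as 1 sample, their mean. Castle building therefore has n = 1, and its tests assume that it varies like the other samples. That sample also stood apart in marker genes. The summed level of 4 myelin markers was 1194 CPM (counts scaled to a common library size) in castle building and 5700 to 6966 CPM in the other samples. The gene mpz alone carried that gap, with 844 against 5339 to 6587 CPM, while castle building lay within the range of the other samples for myrf (217 CPM), sox10 (93.7 CPM) and mbp (38.8 CPM). The 8 neuron markers summed to 3812 CPM against 3970 to 5067 CPM. Castle building was below all other samples for stmn2 (65.0 against 509 to 591 CPM), nefm (53.4 against 307 to 367 CPM), slc17a6 (115 against 413 to 691 CPM) and gad2 (717 against 1161 to 1439 CPM). It was above them for elavl3 (964 against 349 to 513 CPM) and elavl4 (781 against 197 to 331 CPM). For snap25 and syt1 it lay within their range. Castle building also had the highest summed level of 5 radial glia and astroglia markers (5802 CPM, against 3121 to 5407 CPM). The gene slc1a2 carried that gap, with 4245 against 1365 to 2545 CPM. Castle building was also highest for slc1a3 (70.9 against 35.7 to 56.8 CPM) but lowest for ndrg2 (179 against 204 to 515 CPM). For s100b and gja1 it lay within the range of the other samples. The summed level of 2 microglia and leukocyte markers was lowest in castle building (84.5 against 152 to 265 CPM). The gene cd74 carried that gap (71.4 against 116 to 254 CPM), while csf1r lay within the range of the other samples. The sum of 2 vessel and meninges markers was also lowest there, by little (72.3 against 74.9 to 109 CPM). Of these, dcn was lowest (55.3 against 64.4 to 87.5 CPM) and kdr within range. In whole brain, fewer cells of a type and less RNA per cell cannot be told apart.

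The first question was whether the counts of the scaffold genes were divided equally between both parental copies. Those of shank1 were not: its C. virginalis allele gave the larger part of the counts in all 5 samples. As the allele counter and genome build were not given, unequal counts and unequal expression could not be told apart. With edgeR, shank1 was the only gene of the 9 that passed over all animals, and the other 8 had mean shares between 47.0 and 54.0%. Over all tested genes, the C. virginalis allele held 52.3 to 54.3% of a sample's counts, a pooled share in which deep genes weigh most. The median gene was closer to equality, with a log2 ratio of C. virginalis to M. conophoros counts of 0.05. A gene near 53% thus matches the pooled share but lies above the median gene.

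In mammals, shank1 encodes a large scaffold that binds dlgap proteins through its PDZ domain and homer proteins through a proline-rich stretch. Its C. virginalis and M. conophoros alleles had 585 and 422 counts in pit digging replicate 1, 472 and 316 in replicate 2, 120 and 97 in isolated replicate 1, 145 and 87 in isolated replicate 2, and 696 and 403 in castle building. The shares were 58.1 and 59.9% in pit digging, 55.3 and 62.5% in isolation and 63.3% in castle building. Every one of them lay above 50% and above the share of all tested genes in the same sample. The castle building share had an exact (Clopper-Pearson) 95% binomial interval of 60.4 to 66.2%, and the interval of isolated replicate 1, the shallowest for this gene, ran from 48.4 to 62.0%. Such intervals cover counting error only.

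The mean shank1 share was 59.8% ± 3.28 (SD, n = 5), and the log2 allelic ratio averaged over the 3 paradigms was 0.61 ± 0.08 (SE), a 1.53-fold difference (edgeR quasi-likelihood test, adjusted p = 0.00452). Of all 6844 tested genes, 8.21% passed this test, 7.74% with the C. virginalis allele higher, against 1 of the 9 scaffold genes. The call remained when any pit digging or isolated library was left out (adjusted p from 0.00774 to 0.0298) and without the castle building sample (log2 ratio 0.52 ± 0.10, adjusted p = 0.0137). DESeq2 gave the same log2 ratio with an adjusted p of 0.0555.

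**Figure D1:**
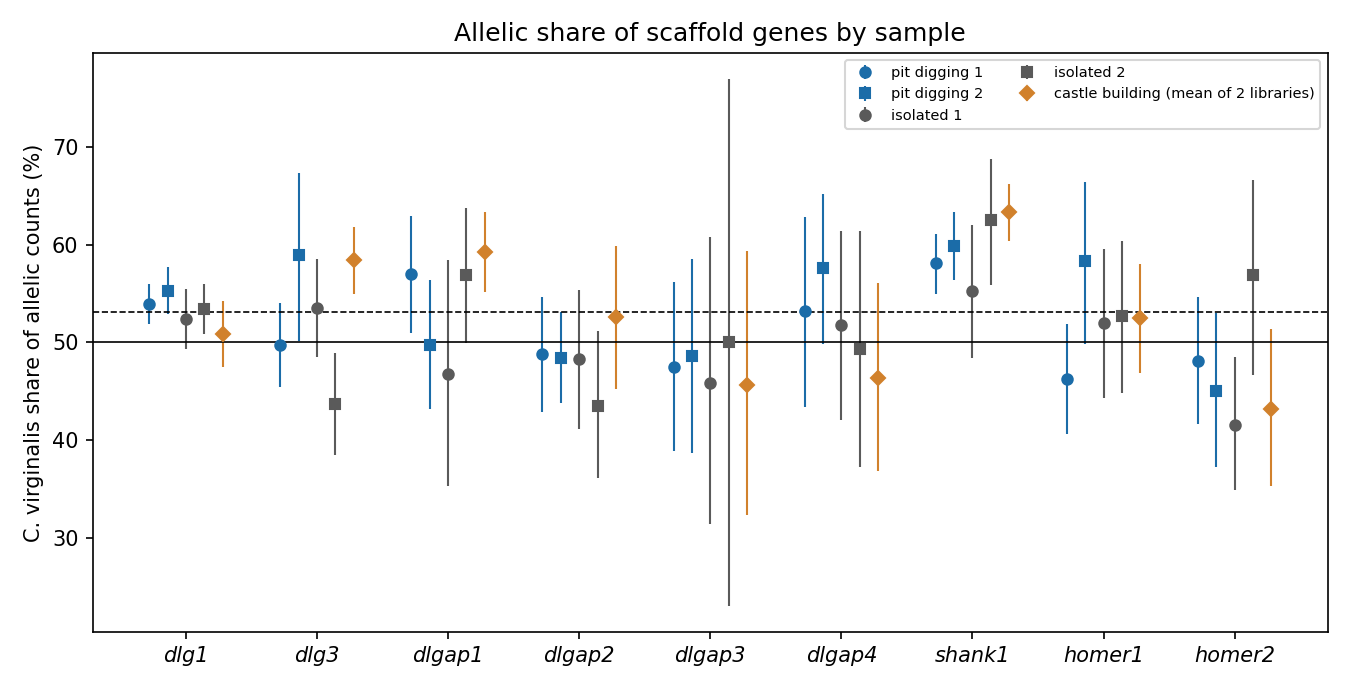
C. virginalis share of allelic counts (percent) of each scaffold gene in each of the 5 samples; bars are exact 95% binomial intervals, the solid line marks 50% and the dashed line the pooled share of all tested genes, averaged over the samples, 53.1%. All 5 points of shank1 lie above both lines, whereas the points of dlg3, dlgap1, dlgap2, dlgap4, homer1 and homer2 lie on both sides of 50%.

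Of the guanylate kinase scaffolds, dlg1 had shares close to the pooled share of all tested genes, while those of dlg3 ran from 43.7 to 59.0%. The gene dlg1 encodes a scaffold that in mammals traffics AMPA receptors and potassium channels and also acts at epithelial junctions. It was the deepest of the 9, with 2306 and 1645 counts in pit digging, 1044 and 1509 in isolation and 879 in castle building. Its shares were 54.0 and 55.3% in pit digging, 52.4 and 53.4% in isolation and 50.9% in castle building, where the 95% interval was 47.5 to 54.2%. All 5 shares exceeded 50%, yet only 2 exceeded the pooled share of all tested genes in their sample. The log2 ratio was 0.16 ± 0.06 over all animals (SE; edgeR adjusted p = 0.17) and 0.27 ± 0.08 in pit digging alone (adjusted p = 0.132). The medians of all genes were 0.05 and 0.07.

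The gene dlg3 encodes a scaffold that binds NMDA receptors in mammals. Its shares were 49.7 and 59.0% in pit digging, 53.6 and 43.7% in isolation and 58.4% in castle building. Libraries of a paradigm thus fell on opposite sides of 50%, and the spread between replicates (SD 6.53 points in pit digging, 6.99 in isolation) covered any difference between these paradigms. In castle building the interval of 54.9 to 61.8% lay above 50%, with a log2 ratio of 0.49 ± 0.23 (SE; edgeR adjusted p = 0.625). Over all animals the log2 ratio was 0.20 ± 0.12 (adjusted p = 0.442), and 0.05 without the castle building sample.

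The 4 dlgap genes encode linkers that bind the guanylate kinase domain of the dlg proteins and the PDZ domain of shank. None passed over all animals. For dlgap1, the shares were 57.0 and 49.8% in pit digging, 46.8 and 56.9% in isolation and 59.3% in castle building. Here too the replicates straddled 50%, and only the castle building interval (55.2 to 63.3%) and that of pit digging replicate 1 (51.0 to 62.9%) lay wholly above it. The log2 ratio of dlgap1 was 0.31 ± 0.11 over all animals (SE; edgeR adjusted p = 0.172) and 0.54 ± 0.21 in castle building (adjusted p = 0.445).

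For dlgap2, the C. virginalis share was 48.8 and 48.5% in pit digging, 48.3 and 43.5% in isolation and 52.6% in castle building. It lay below 50% in every library but the castle building sample, with a log2 ratio of -0.05 ± 0.09 (SE; edgeR adjusted p = 0.841). The shares of dlgap3 were 47.4 and 48.6% in pit digging, 45.8 and 50% in isolation and 45.6% in castle building, so that none exceeded 50% (log2 ratio -0.18 ± 0.15, adjusted p = 0.661). Depth limits that gene: isolated replicate 2 held only 14 counts, 7 on each allele, and its 95% interval ran from 23.0 to 77.0%. As a gene is listed only with 6 counts or more on both alleles, a share at that depth could not lie far from 50%. The interval does not reflect this. For dlgap4 the shares were 53.2 and 57.6% in pit digging, 51.8 and 49.3% in isolation and 46.4% in castle building, with a log2 ratio of 0.06 ± 0.12 over all animals (adjusted p = 0.88). That value lay at the median of all genes (0.05). With the alleles scaled by TMM it was -0.02, and the median of all genes -0.03.

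The homer genes encode adaptors whose N-terminal EVH1 domain binds shank, metabotropic glutamate receptors and calcium channels. In mammals homer1 also gives a short, activity-induced form that lacks the coiled coil, and these counts per gene do not separate the forms. The shares of homer1 were 46.2 and 58.3% in pit digging, 52.0 and 52.7% in isolation and 52.5% in castle building. The isolated and castle building values agree to within 1 point, whereas the pit digging libraries lay on either side of them (log2 ratio 0.11 ± 0.12, SE; edgeR adjusted p = 0.706; 0.02 without pit digging replicate 2 and 0.25 without replicate 1). The shares of homer2 were 48.1 and 45.1% in pit digging, 41.6 and 56.9% in isolation and 43.2% in castle building. The M. conophoros allele was the higher one in 4 of 5 samples, and isolated replicate 2, with 102 counts, was the exception. The log2 ratio of homer2 was -0.24 ± 0.15 (adjusted p = 0.46), and -0.06 without isolated replicate 1.

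The order of mean shares over the 5 samples ran from shank1 (59.8%) through dlgap1 (54.0%), dlg1 (53.2%), dlg3 (52.9%), homer1 (52.3%), dlgap4 (51.7%), dlgap2 (48.3%) and dlgap3 (47.5%) to homer2 (47.0%). From dlgap1 downwards, neighbours in this order differed by less than the SD of either gene over the samples, apart from dlgap4 and dlgap2, whose gap exceeded the SD of dlgap2 (3.24 points) but not that of dlgap4 (4.24 points). The median log2 ratio of the 9 genes was 0.11, against 0.05 over all tested genes, and 6 of the 9 ratios were above 0 (5 with the alleles scaled by TMM), against 4193 of 6844. The gap between shank1 and dlgap1 exceeded the SD of both genes.

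**Figure D2:**
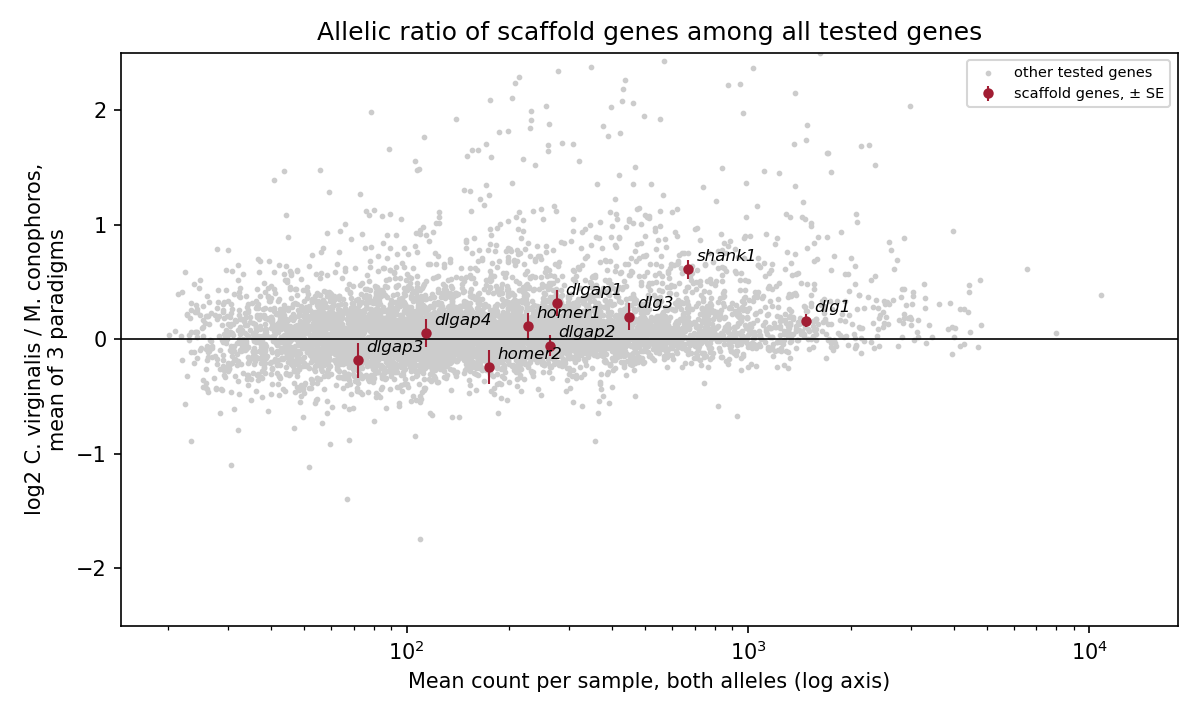
Log2 ratio of C. virginalis to M. conophoros counts, averaged over the 3 paradigms, against the mean count per sample of each tested gene (log axis); scaffold genes are red with bars of ± 1 SE, and 18 genes lie beyond the vertical axis. The shank1 point (0.61) stands above the other 8 scaffold genes, which lie between -0.24 and 0.31.

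Within single paradigms, shank1 passed in pit digging alone. The log2 ratio was 0.52 ± 0.12 (SE) in pit digging (edgeR adjusted p = 0.0466; 6.59% of all genes passed), 0.52 ± 0.14 in isolation (adjusted p = 0.113; 4.4% passed) and 0.79 ± 0.17 in castle building (adjusted p = 0.0916; 1.71% passed). The pit digging call was close to the threshold. Its adjusted p was 0.213 and 0.222 without pit digging replicate 1 or 2, 0.0559 without either isolated replicate and 0.84 with DESeq2. Scaling the alleles by TMM, which moves the median of all genes by -0.12 (log2) in pit digging, gave 0.41 ± 0.12 for shank1 (adjusted p = 0.132). No other scaffold gene passed in any paradigm, and 2 of the 9 in pit digging, 2 in castle building and 1 in isolation had an unadjusted p under 0.05, against 1226, 661 and 978 of all 6844 genes.

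The genes with a symbol whose shares over the 5 samples were most like those of shank1 were tmem55a, rbm25 and march5. Their root mean square differences from shank1 were 1.63, 2.01 and 2.54 percentage points, the smallest of 3555 candidates with a mean count of at least 50. This likeness is a description over 5 samples.

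The contrast between paradigms asked whether the allelic ratio of a scaffold gene depends on what the male had been doing. No scaffold gene passed. Between pit digging and isolation, the ratio of shank1 differed by 0.0014 (log2, without SE, which is unreliable with F this close to 0). This value changed sign under 3 alternatives and ran from -0.21 without isolated replicate 1 to 0.22 without replicate 2. No gene of the 6844 passed this contrast with edgeR (0%; 387 at an unadjusted p under 0.05, none of them a scaffold gene), and DESeq2 called 2 genes. The shares of dlg1, dlgap2 and dlgap4 were higher in both pit digging libraries than in both isolated ones, and none of the 9 was lower in both. Over all genes the libraries did not overlap for 34.2%, 18.7% higher in this way and 15.5% lower.

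Against castle building, the shank1 ratio differed by -0.26 ± 0.21 in pit digging (log2, SE; edgeR adjusted p = 0.791) and by 0.27 ± 0.22 between castle building and isolation (adjusted p = 0.836). The second value was 0.05 without isolated replicate 1 and 0.48 without replicate 2. Both comparisons share the castle building sample. Among the other genes, dlgap4 had a log2 ratio higher by 0.54 ± 0.31 in pit digging than in castle building (adjusted p = 0.678), and dlg3 one higher by 0.57 ± 0.30 in castle building than in isolation (adjusted p = 0.694). The latter was 0.28 without isolated replicate 2 and 0.86 without isolated replicate 1. The share of all genes that passed was 0.161% for the first contrast and 0.263% for the second, and 0 of the 9 scaffold genes had an unadjusted p under 0.05 in either, against 626 and 582 of 6844 genes. DESeq2 called 0 of the 9 in each.

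Summed over both alleles, shank1 was the only scaffold gene that passed in a contrast with edgeR, that of castle building against isolation. Its level was lowest in both isolated samples, intermediate in both pit digging samples and highest in castle building. Sums were scaled to CPM with TMM factors, and they count only reads over sites that tell the alleles apart, so levels were compared between samples of a gene and not between genes. The summed shank1 level was 352 and 420 CPM in pit digging, 114 and 114 CPM in isolation and 533 CPM in castle building. The isolated samples, which differed by less than 1 CPM, lay below all others, and the groups did not overlap. Nor did the groups overlap for dlg1 and dlgap3. Such separation was common: pit digging and isolation did not overlap for 43.4% of all genes (21.2% with pit digging higher). Castle building lay outside the pit digging range for 81.7% and outside the isolated range for 83.6% of all genes. The share of genes with all 3 groups apart was not counted.

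Castle building exceeded isolation 4.68-fold for shank1 (log2 difference 2.23 ± 0.24, SE; edgeR adjusted p = 0.0359), and 6.72% of all genes passed this contrast (2.44% of all genes higher in castle building and the rest of them lower). The castle building level is that of a single sample in which many genes moved. The call was lost without any 1 pit digging or isolated library (adjusted p from 0.0895 to 0.104) and with a replicate block (adjusted p = 0.118), fits in which 0 genes of the whole table passed. The log2 difference itself stayed between 2.04 and 2.36 over 16 alternatives. The part of the altered marker levels in this difference was not tested.

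Pit digging exceeded isolation 3.39-fold for shank1 (log2 difference 1.76 ± 0.21, SE), and the adjusted p was 0.187 with edgeR and 0.00289 with DESeq2. With edgeR no gene passed this contrast (0%; 676 of 6844 at an unadjusted p under 0.05, shank1 among them), whereas DESeq2 called 128 genes, of which shank1 was the only scaffold gene. The log2 difference ran from 1.62 to 1.87 over 17 alternatives, and it was 1.77 without the castle building sample. Levels of pit digging and castle building differed less, by -0.47 ± 0.25 (adjusted p = 0.284).

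**Figure D3:**
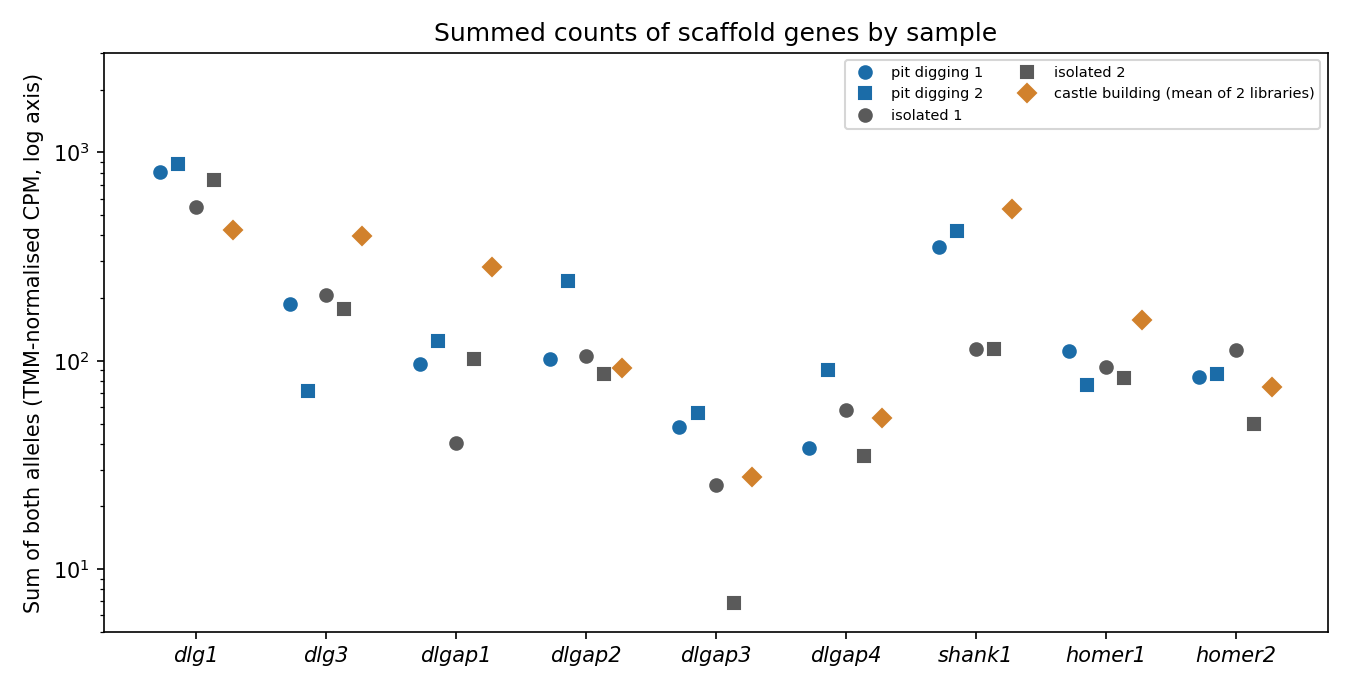
Sum of both alleles (TMM-normalised CPM, log axis) of each scaffold gene in each of the 5 samples. The isolated shank1 points coincide at 114 CPM, below pit digging (352 and 420 CPM) and castle building (533 CPM), while dlg1 is lowest and dlg3 highest in castle building.

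The guanylate kinase scaffolds had castle building at opposite ends, and for dlg3 the pit digging and isolated libraries overlapped. The sum of dlg1 was 807 and 876 CPM in pit digging, 549 and 739 CPM in isolation and 427 CPM in castle building. The 3 groups did not overlap, with pit digging wholly above isolation, as for 21.2% of all genes. The sum of dlg3 was 188 and 71.3 CPM in pit digging, 206 and 178 CPM in isolation and 396 CPM in castle building. Castle building thus held the lowest dlg1 and the highest dlg3 level. Neither difference passed between pit digging and castle building, where 4.69% of all genes did. The log2 difference was 0.98 ± 0.29 for dlg1 (SE; edgeR adjusted p = 0.114) and -1.61 ± 0.59 for dlg3 (adjusted p = 0.163). For dlg3, 1 pit digging library decided the size: the difference was -2.49 without replicate 1 and -1.09 without replicate 2. Between castle building and isolation the log2 differences were -0.59 ± 0.29 for dlg1 (adjusted p = 0.24) and 1.04 ± 0.59 for dlg3 (adjusted p = 0.303). Those between pit digging and isolation were 0.39 ± 0.23 (adjusted p = 0.624) and -0.56 ± 0.50 (adjusted p = 0.723). The value of dlg1 was 0.19 without isolated replicate 1 and 0.62 without replicate 2, and that of dlg3 -1.44 without pit digging replicate 1 and -0.04 without replicate 2.

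Of the linkers, dlgap1 and dlgap3 varied most. The sum of dlgap1 was 97.0 and 125 CPM in pit digging, 40.5 and 102 CPM in isolation and 282 CPM in castle building. Castle building was the highest, and the isolated libraries differed 2.53-fold from each other. The log2 difference between castle building and isolation was 1.98 ± 0.58 (SE; edgeR adjusted p = 0.11; DESeq2 adjusted p = 0.0247), and it ranged from 1.46 without isolated replicate 1 to 2.80 without replicate 2. Between pit digging and castle building it was -1.34 ± 0.58 (edgeR adjusted p = 0.211), and between pit digging and isolation 0.63 ± 0.50 (adjusted p = 0.705), or 0.12 without isolated replicate 1 and 1.45 without replicate 2.

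The sum of dlgap3 was 48.0 and 55.9 CPM in pit digging, 25.3 and 6.85 CPM in isolation and 27.7 CPM in castle building. Pit digging was the highest group without overlap, by 1.69 ± 0.67 over isolation (log2, SE; edgeR adjusted p = 0.512) and by 0.91 ± 0.81 over castle building (adjusted p = 0.506). The first of these rests largely on isolated replicate 2, with 14 counts: it was 1.04 without that library and 2.91 without isolated replicate 1. Pit digging lay wholly above isolation for 21.2% of all genes. Castle building exceeded isolation by 0.79 ± 0.79 for dlgap3 (adjusted p = 0.541), and by 0.13 without isolated replicate 2.

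For dlgap2 the sums were 102 and 241 CPM in pit digging, 106 and 86.7 CPM in isolation and 92.2 CPM in castle building. A single library, pit digging replicate 2, was high, and the log2 difference of 0.83 ± 0.47 between pit digging and isolation (SE; edgeR adjusted p = 0.615) was 0.07 without it. The same library was the highest for dlgap4, whose sums were 38.2 and 90.5 CPM in pit digging, 57.9 and 34.8 CPM in isolation and 53.4 CPM in castle building. The pit digging values of dlgap4 enclosed all others except isolated replicate 2.

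The sums of the homer genes did not pass in any contrast. Sums of homer1 were 111 and 76.7 CPM in pit digging, 93.1 and 82.7 CPM in isolation and 157 CPM in castle building. The first groups overlapped, and castle building lay above both, with log2 differences of -0.74 ± 0.34 for pit digging against castle building (SE; edgeR adjusted p = 0.235) and 0.84 ± 0.34 for castle building against isolation (adjusted p = 0.188). Sums of homer2 were 83.7 and 86.3 CPM in pit digging, 113 and 49.9 CPM in isolation and 75.2 CPM in castle building. The isolated libraries of homer2 enclosed every other value.

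By mean level, pit digging was the highest paradigm for 5 of the 9 genes and castle building for 4, and isolation was the lowest for 5, castle building for 3 and pit digging for 1. These orders were not counted over all genes, so whether they are unusual is not known. For homer2 and dlgap4 the highest and lowest means differed only 1.13-fold and 1.39-fold, less than replicates of a paradigm did. The log2 difference between pit digging and isolation was above 0 for 8 of the 9 genes, against 3390 of 6844 genes, with a median of 0.47 against -0.0045. Leaving out pit digging replicate 1, pit digging replicate 2 or isolated replicate 2 made it 7 of 9. In this contrast 3 scaffold genes (dlg1, dlgap3 and shank1) had pit digging wholly above isolation and 0 wholly below, against 21.2% and 22.2% of all genes (43.4% together). The single castle building sample lay outside the range of the pit digging libraries for 8 of the 9 genes (81.7% of all genes) and outside that of the isolated libraries for 6 of the 9 (83.6% of all genes). Summed over the 9 genes, the level was 1827 and 2042 CPM in pit digging, 1305 and 1394 CPM in isolation and 2043 CPM in castle building, a sum in which dlg1 and shank1 weigh most.

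The sums also showed how each parental copy contributed. For shank1, the C. virginalis allele stood at 205 and 251 CPM in pit digging, 63.1 and 71.0 CPM in isolation and 338 CPM in castle building. The M. conophoros allele stood at 148 and 168, 51.0 and 42.6, and 196 CPM in the same order. Both alleles were lowest in both isolated samples and highest in castle building. Tested on 1 allele at a time, the log2 difference between castle building and isolation was 2.35 ± 0.29 for the C. virginalis allele (SE; edgeR adjusted p = 0.0394) and 2.04 ± 0.26 for the M. conophoros allele (adjusted p = 0.0377). Both tests rest on the same single castle building sample as the test of the sum. The call for the sum was lost without any 1 pit digging or isolated library. Between pit digging and isolation the log2 differences were 1.74 ± 0.26 (adjusted p = 0.212) and 1.76 ± 0.23 (adjusted p = 0.151). For dlg3 the alleles differed more, with 1.32 on the C. virginalis and 0.72 on the M. conophoros allele between castle building and isolation, neither past the threshold.

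**Figure D4:**
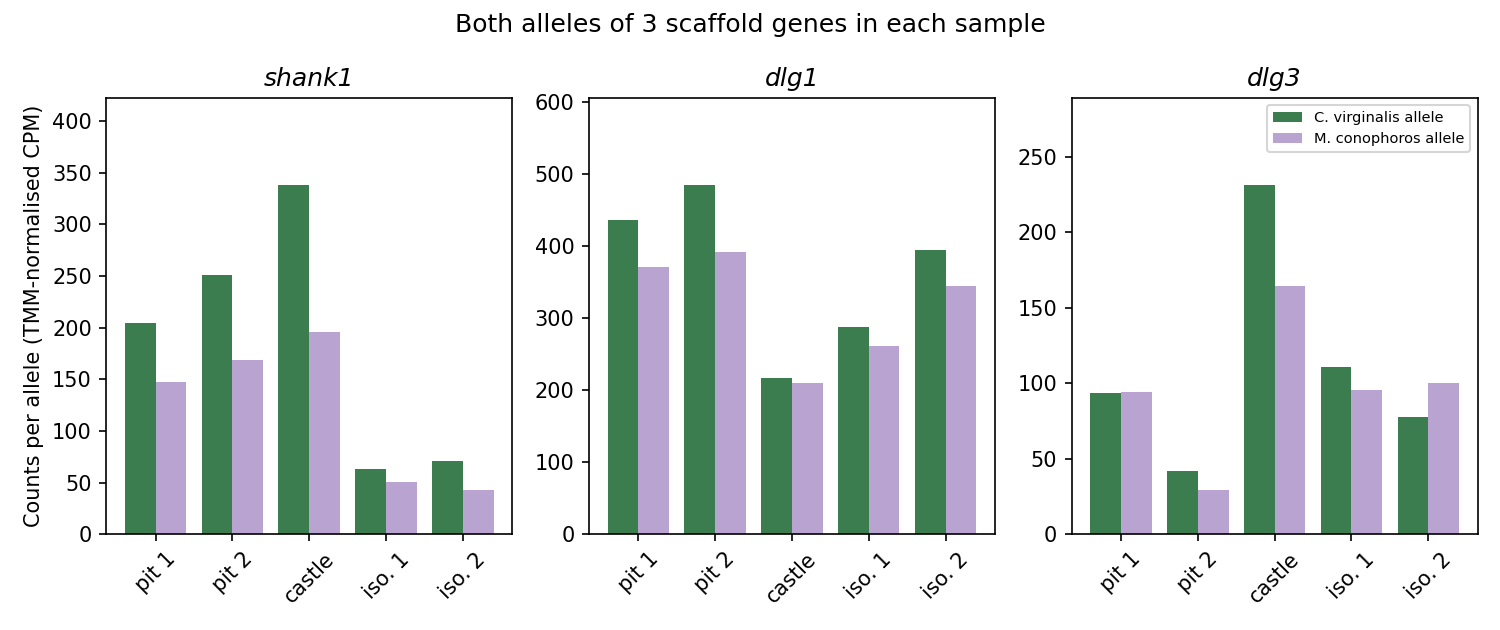
Level of each allele (TMM-normalised CPM) of shank1, dlg1 and dlg3 in the 5 samples; green bars are the C. virginalis and lilac bars the M. conophoros allele, pit, castle and iso. stand for pit digging, castle building and isolated, and each panel has its own axis from 0. Both shank1 bars are short in isolation (63.1 and 71.0 CPM, 51.0 and 42.6 CPM), and the green bar is the taller in every sample.

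Other components of the postsynaptic density were looked at for comparison. Of all tested genes, 8.21% passed over all animals with edgeR, 7.74% with the C. virginalis allele higher. Of 31 other scaffold genes, 18 were tested, and 2 were higher on the C. virginalis allele over all animals, 0 lower and 16 did not pass (edgeR; median log2 ratio 0.09, against 0.05 over all genes). They were caskin1, which encodes a binding partner of the scaffold CASK (63.2% ± 5.96, SD, n = 5; adjusted p = 0.00567), and the AMPA receptor anchor grip1 (55.5% ± 2.56; adjusted p = 0.0491). The other shank genes had shares near equality: 53.1% ± 6.09 for shank2 (adjusted p = 0.571) and 49.7% ± 4.49 for shank3 (adjusted p = 0.899). The next genes of that list by p were erbb2ip (55.4% ± 2.82) and lin7b (54.3% ± 3.97), neither of which passed.

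Of 29 genes for partners that the scaffolds bind, 13 were tested. The kinesin gene kif1b was higher on the C. virginalis allele (58.9% ± 5.18, SD, n = 5; edgeR adjusted p = 0.0128), 0 were lower and 12 did not pass (median log2 ratio -0.02). These included the latrophilin adgrl2 (57.5% ± 6.03), the NMDA receptor subunit grin2b (54.7% ± 6.02), the ryanodine receptor ryr2 (52.3% ± 1.69) and the homer ligand grm5 (49.5% ± 1.39). Of 30 genes for postsynaptic signalling and spine actin, 19 were tested and 2 were higher on the C. virginalis allele, 0 lower, with 17 not passing (median log2 ratio 0.11). Both encode parts of the WAVE complex, which drives actin branching: nckap1 (61.8% ± 4.28, adjusted p = 0.00591) and abi1 (54.0% ± 14.3, adjusted p = 0.0212). The abi1 call comes from the castle building sample, where its share was 79.5%, against 46.2 to 48.3% in the other samples. The endocytic adaptor pacsin1 (52.5% ± 0.937) and cyfip2 of the WAVE complex (56.3% ± 7.74) came next and did not pass. With DESeq2, caskin1 was the only gene of these 3 lists called over all animals. Over all 6844 genes, 8.21% passed with edgeR, and DESeq2 called 258.

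In the sums, 6.72% of all genes passed with edgeR between castle building and isolation, and 4.69% between pit digging and castle building. The scaffold relative mpp3 had the order of shank1. It stood at 139 and 149 CPM in pit digging, 60.5 and 69.0 CPM in isolation and 330 CPM in castle building (log2 difference between castle building and isolation 2.35, edgeR adjusted p = 0.0359). With edgeR it was the only one of the 18 other scaffolds to pass in that contrast, in either direction (median 0.65, against -0.05 over all genes), and DESeq2 called erbb2ip besides. The levels of shank2 (92.4 and 457 CPM in pit digging, 94.2 and 157 CPM in isolation, 236 CPM in castle building) and shank3 (174 and 184, 144 and 148, and 103 CPM) did not pass in any contrast. Of the 13 partners, the inositol trisphosphate receptor itpr1 was lower in castle building, with 37.4 CPM against 218 to 261 CPM in the other samples, and 12 did not pass in castle building against isolation with edgeR (DESeq2 called nlgn1 besides, higher in castle building). Of the 19 signalling and actin genes, abi1 and wasf1 were lower in castle building than in isolation and 17 did not pass with edgeR (DESeq2 called kalrn besides, higher in castle building). Between pit digging and castle building, itpr1 and abi1 passed with edgeR, both higher in pit digging, and no gene of the 18 other scaffolds did. Of these 18, 6 had an unadjusted p under 0.05, against 2047 of 6844 genes, and DESeq2 called erbb2ip, lrrc7 and tanc2. Among the partners DESeq2 called nlgn1 besides, lower in pit digging. Among the signalling and actin genes it added wasf1, higher in pit digging, and sipa1l3, lower in pit digging. Between pit digging and isolation none of the 3 lists had a gene that passed (edgeR; 2, 0 and 3 genes at an unadjusted p under 0.05), and DESeq2 called 1 gene among the partners, nlgn1, and 1 among the signalling and actin genes, cttnbp2.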

How the data were processed

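For each of the 6 libraries the authors deposited raw read counts, 1 value per gene and allele, with no normalization per the file headers. The submitters' processing notes name STAR 2.4, and no source used here gives the allele counter, genome build, annotation or strand. A gene is listed only where both alleles have 6 counts or more (castle building: a total of 21 or more), so a gene left out is not a count of 0. A table of the genes in all libraries was not used.

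Genes listed in all 6 tables with a mean total of at least 20 were tested (6844). The quasi-likelihood test of edgeR 4.0.16 (R 4.3.3) was used. For allelic counts, the model held an intercept for every sample and an allele effect for every paradigm, with the library size of the sum given to both alleles. Sums were fitted with TMM and paradigm as the factor. Both fits had 2 residual degrees of freedom, and the biological coefficient of variation was 10.8% and 34.1%. P-values were adjusted by Benjamini-Hochberg over all tested genes with a threshold of 0.05. The SE is the log2 value divided by the square root of F. Exact 95% intervals cover counting error. DESeq2 1.42.0 and the other alternatives are given at the end, and the procedure was tested on simulated data. All 9 genes are named whatever their values; of each list the genes with the smallest p, up to 4, and those that passed are named. The genes, lists and tests were chosen with earlier results of these data known. The genes shank2, shank3 and grm5, and list genes that passed in the sums, were named after their values were seen. Near-identical gene copies, common in fish, may share reads, and the authors' counting could split these. No sequences were used here.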

Additional observations from a re-analysis of the deposited data

How the results depend on the processing

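Of the 9 genes, 1 passed over all animals, 1 in pit digging and 1 in the sum between castle building and isolation, each time shank1. The allelic count over all animals fell to 0 with DESeq2, and that in pit digging to 0 with DESeq2, a mean total of at least 100, only the pit digging libraries, TMM between alleles or without the castle building sample (an alternative chosen after seeing the data). Leaving out 1 library gave 0 to 1 in pit digging and 0 to 1 in the sum between castle building and isolation; the latter was 0 with only the libraries compared and 0 with a replicate block. Taking the castle building libraries as 2 samples gave 2 over all animals, 2 in pit digging, 2 in castle building, and in the sums 1 (pit digging against isolation), 3 (pit digging against castle building) and 3 (castle building against isolation); it counts near-identical libraries as independent. DESeq2 called 1 sum between pit digging and isolation and 2 between castle building and isolation. The shank1 ratio between pit digging and isolation (0.0014) ran from -0.21 without isolated replicate 1 to 0.22 without replicate 2, with -0.05 without pit digging replicate 2, and was -0.0284 with TMM between alleles; dlgap4 over all animals (0.06) was -0.0245 with TMM between alleles. The cause of these changes was not tested.

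Same-numbered pit digging and isolated libraries did not deviate together (correlation -0.03 for ratios, -0.10 for sums, over 6844 genes). With a single replicate difference per paradigm, this cannot show whether they shared more than the number. The replicate block changed no other count of scaffold genes.

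Counts over all genes rose with castle building as 2 samples: from 562 to 1093 over all animals, 451 to 709 in pit digging, 117 to 619 in castle building, and in the sums from 0 to 169, 321 to 2648 and 460 to 2734; ratios went from 11 to 273 (pit digging against castle building) and 18 to 209 (castle building against isolation). DESeq2 gave 258, 174, 58 and 131 genes over all animals, in pit digging, castle building and isolation (301 with edgeR), and 128, 854 and 933 sums. With 1 library left out, 293 to 618 genes passed over all animals, 178 to 449 in pit digging, 48 to 151 in castle building and 69 to 382 in isolation, 0 to 12, 7 to 43 and 4 to 32 ratios, and 0 to 331 and 0 to 469 sums of castle building. With the replicate block 31 and with TMM 23 ratios passed between pit digging and castle building, and 28 between castle building and isolation with TMM.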
